A study of Ovis aries with 12 samples.

Results

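The muscle described here is the longissimus dorsi, which runs along the back, in Tan sheep (Ovis aries) kept on the control diet. Its 3 libraries were taken by their diet label, out of 12 libraries in all. The trial behind them held 36 sheep aged 5 months, 9 to a diet, which were fed for 60 days after 10 days of pretrial. The control sheep received the basal feed, and the other 9 libraries, 3 per diet, came from sheep whose basal feed held 0.5% (SUC1), 1% (SUC2) or 2% (SUC3) succinate, a metabolite of the TCA cycle. The study was about fibre traits and meat quality under succinate feeding. The sources used here do not say whether a library was 1 sheep or a pool, so every spread and p-value below measures these samples and may in part be technical. The labels give no sex and no genetic alteration.

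Skeletal muscle is built of fibres whose contractile proteins come in slow and fast isoforms encoded by separate genes. Slow fibres carry myosin heavy chain MYH7 and rely on mitochondria. Fast fibres carry MYH2, MYH1 or MYH4, in order of falling oxidative capacity, and rely increasingly on glycolysis, glycogen and creatine phosphate. The longissimus of ruminants is a mostly fast muscle, and its fibre composition is followed in meat science because it is related to colour, glycogen reserve and tenderness.

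Library totals were 16934770, 16678596 and 17233737 counts in replicates 1, 2 and 3. A count was present for 15153, 15562 and 15450 genes of the 21257 in the table, and 9147 genes reached 1 FPKM (counts scaled to gene length and to the library total) in all 3 libraries. A floor of 3 counts was worth 0.177, 0.180 and 0.174 CPM (here counts scaled to the library total only), which covers counting error only. The CPM values of single genes given below are TMM-scaled, meaning scaled further by the trimmed mean of M-values. All 14 markers of skeletal muscle fibres exceeded 1 FPKM in each library and summed to 98829, 78384 and 79710 FPKM. The 10 cardiac markers summed to 2.97, 1.28 and 0.930 FPKM, and NPPA, NPPB, MYL7, TBX5 and NKX2-5 were at 0 in all 3. Replicate 1 stood apart from the other pair in the results on fibre type and on variable genes, and the values without it are given where they moved most.

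A handful of genes made up much of the control transcriptome. The fewest genes that held 50% of summed FPKM were 26, 44 and 32 in replicates 1, 2 and 3. The 20 most abundant genes of the nuclear genome held 27.8% ± 1.70 of it (SD, n = 3), and 43 genes reached 1000 FPKM in all 3 libraries. By role, these 20 genes were sarcomere proteins, glycolytic and glycogen enzymes, creatine kinase, an oxygen store, a calcium pump regulator, a nucleotide carrier, an iron store and a growth-related protein.

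ACTA1, skeletal muscle actin and the backbone of the thin filament, was the most abundant nuclear gene. It measured 38911, 26460 and 27877 FPKM (mean 31082 ± 6816), with replicate 1 the highest. The deposited table put it on chromosome 25 at 961951 to 964706, on a build that the table does not name. Fast troponin C, TNNC2, which binds the calcium that starts contraction, measured 12033, 11625 and 12057 FPKM (mean 11905 ± 243), and its 3 libraries lay close together. The fast regulatory light chain MYLPF measured 12444, 10880 and 9208 FPKM, and the fast essential light chain MYL1 measured 7018, 4890 and 5361 FPKM. Both light chains were highest in replicate 1, MYL1 by more than MYLPF. MYH1, the myosin heavy chain of fast 2X fibres, was nearly level at 7984, 7933 and 7934 FPKM (mean 7950 ± 29.3). Fast troponin I, TNNI2, was higher in replicate 1, at 5293 FPKM, than in replicates 2 and 3, at 3154 and 3124 FPKM. The remaining sarcomere members of the 20 were MYOZ1, TPM2 and DES, which encode a Z-disc protein, beta tropomyosin and the intermediate filament desmin, with means of 2554 ± 312, 2413 ± 582 and 2137 ± 229 FPKM.

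Enzymes of rapid ATP supply stood among the sarcomere genes in rank. Muscle creatine kinase, CKM, which regenerates ATP from creatine phosphate, measured 15641, 12782 and 11717 FPKM (mean 13380 ± 2029). Aldolase A, ALDOA, measured 10252, 9416 and 8624 FPKM. GAPDH measured 6916, 6742 and 5711 FPKM, so replicate 3 was the lowest for all 3 of these enzymes. A second locus, LOC114110581, which can share reads with GAPDH, was listed at 1523, 1538 and 1282 FPKM, and the division between them is uncertain. Muscle enolase, ENO3, muscle phosphoglycerate mutase, PGAM2, and glycogen phosphorylase, PYGM, had means of 4544 ± 876, 2116 ± 278 and 2773 ± 87.7 FPKM. SLC25A4, the ADP and ATP carrier of the inner mitochondrial membrane, measured 2724, 1714 and 1876 FPKM.

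Of the rest, myoglobin, MB, which stores oxygen, measured 4050, 3009 and 4639 FPKM. Sarcolipin, SLN, an inhibitor of the calcium pump of the sarcoplasmic reticulum, measured 2742, 2996 and 1766 FPKM. The pair ran in opposite orders, with replicate 2 lowest for MB and highest for SLN. TPT1, a growth-related protein, measured 3548, 5222 and 3447 FPKM. Ferritin heavy chain, FTH1, which stores iron, spread most widely of the 20 relative to its mean, at 1920, 4732 and 2788 FPKM, and was highest in replicate 2.

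**Figure D1:**
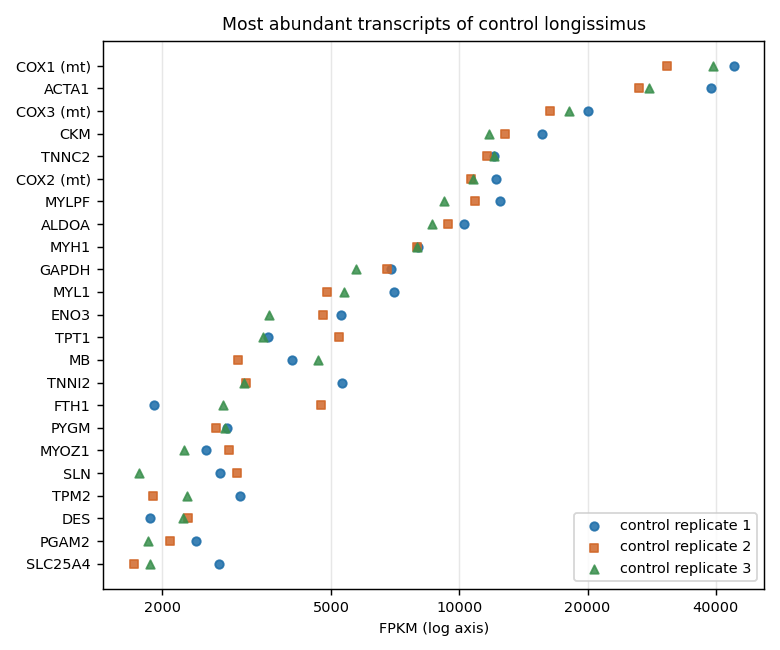
FPKM (log axis) in each control library for the 20 most abundant nuclear genes and the 3 most abundant genes of the mitochondrial genome (mt); points are single libraries. COX1 and ACTA1 lead with means of 38136 and 31082 FPKM, MYH1 is nearly level across libraries, and FTH1 runs from 1920 to 4732 FPKM.

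The 13 protein genes of the mitochondrial genome, all subunits of the respiratory chain or ATP synthase, held 21.6%, 18.4% and 22.3% of summed FPKM (mean 20.8% ± 2.07, SD, n = 3). The cytochrome c oxidase subunits led. COX1 measured 44260, 30810 and 39337 FPKM, which was above ACTA1 in each library. COX3 followed at 20095, 16321 and 18127 FPKM, and COX2 at 12169, 10656 and 10751 FPKM. The order then ran through ATP6, CYTB, ND2, ND4 and ND1, with means from 9379 ± 1029 down to 2571 ± 250 FPKM. Levels within this one genome differed widely, since ND5, ATP8 and ND6 were listed at only 32.7 ± 16.9, 3.89 ± 2.14 and 1.23 ± 0.178 FPKM. ATP8 overlaps ATP6 and ND6 lies on the opposite strand beside ND5, and the sources used here do not say how the counting treated overlaps and strand, so these low values are uncertain.

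By function, contractile genes held 24.9%, 19.6% and 21.0% of summed FPKM (mean 21.8% ± 2.77) over 70 genes. Mitochondrial genes, from both genomes, held 25.8%, 21.8% and 25.8% (mean 24.5% ± 2.30) over 107 genes. Cytosolic energy metabolism, meaning glycolysis, glycogen and the creatine and adenylate system, held 11.3%, 10.4% and 10.1% (mean 10.6% ± 0.584) over 46 genes. By FPKM the contractile and mitochondrial shares lay close together, and cytosolic energy metabolism held less than either in each library. By share of counts, which does not divide by gene length, they were apart, with 27.2% for contractile genes, 13.3% for mitochondrial genes and 8.99% for cytosolic energy metabolism. Without the mitochondrially encoded genes, the nuclear mitochondrial genes held 4.69% and the contractile genes 27.6%.

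Within the contractile class, the thin filament and its regulators took 11.4% ± 1.55 of summed FPKM, the thick filament 6.92% ± 0.819 and the Z-disc and titin 3.48% ± 0.432. By share of counts the order of the first pair turned, with 9.61% for the thin filament, 9.94% for the thick filament and 7.68% for the Z-disc and titin. The giant proteins were modest per length. Titin, TTN, the molecular spring of the sarcomere, measured 234, 284 and 365 FPKM. Nebulin, NEB, the ruler of the thin filament, measured 581, 494 and 731 FPKM. Genes of excitation and calcium handling took 1.81% ± 0.0993, of which the fast calcium pump ATP2A1 measured 1879, 2051 and 2309 FPKM and the calcium buffer CASQ1 1249, 907 and 883 FPKM.

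Within energy metabolism, glycolysis took 5.87% ± 0.249, creatine and adenylate transfer 3.73% ± 0.370 and glycogen 1.000% ± 0.0485. The TCA cycle took far less, at 0.615% ± 0.0396, led by malate dehydrogenase MDH2 with 610, 471 and 498 FPKM. Nuclear complex I genes took 1.03% ± 0.134, with NDUFA4, now counted with complex IV, highest at 866, 515 and 548 FPKM. The nuclear genes of complexes II to V took 2.07% ± 0.284, led by the ATP synthase subunits ATP5F1A and ATP5F1B with means of 765 ± 145 and 752 ± 136 FPKM. Fatty acid uptake and oxidation took 0.659% ± 0.135. Its most abundant member was PDK4, the kinase that shuts pyruvate out of the TCA cycle, at 2417, 856 and 1488 FPKM. Uncoupling protein UCP3 ran in another order, at 114, 215 and 379 FPKM.

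Cytosolic ribosomal proteins, outside these classes, held 5.46%, 7.39% and 5.33%, with replicate 2 the highest. Myogenic regulators took 0.226% ± 0.00872, led by MUSTN1 (mean 544 ± 137 FPKM) and by MYF6 (292 ± 42.5 FPKM), the myogenic factor that persists in adult fibres.

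**Figure D2:**
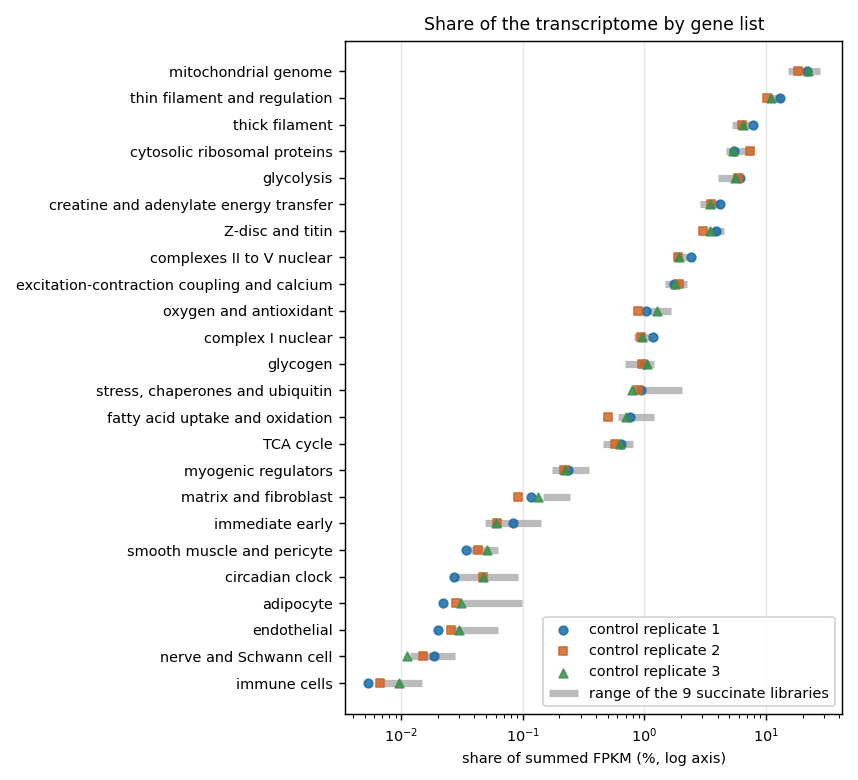
Share of summed FPKM (%, log axis) taken by each gene list in the 3 control libraries (points), with the range of the 9 succinate libraries as grey bars. The mitochondrial genome leads with a mean of 20.8%, and the matrix and fibroblast list lies below its grey bar in all 3 control libraries.

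Other cells of the tissue contributed little. The lists for matrix and fibroblast, adipocyte, endothelial, smooth muscle, immune, erythroid and nerve cells together held 0.220%, 0.210% and 0.267% of summed FPKM. The matrix protein SPARC measured 101, 63.7 and 105 FPKM, decorin, DCN, 88.7, 69.6 and 76.7 FPKM, and type III collagen, COL3A1, 29.6, 26.3 and 51.4 FPKM. Endothelial PECAM1 measured 17.3, 18.1 and 23.0 FPKM. Of the adipocyte markers, adiponectin, ADIPOQ, measured 8.62, 11.9 and 13.2 FPKM and the lipid droplet coat PLIN1 1.58, 1.60 and 1.81 FPKM. FABP4, another adipocyte marker whose values are given at the end, fell from replicate 1 to replicate 3 where this pair rose. As whole lists, the adipocyte genes held 0.0271% of summed FPKM and the endothelial genes 0.0252%. Haemoglobin beta, HBB, a sign of blood left in the tissue, was at 10.9 FPKM in replicate 1 against 1.51 and 1.19 FPKM. The B-cell marker MS4A1 was at 0 in all 3. In bulk tissue, fewer cells of a type and less RNA per cell cannot be told apart.

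The summed share of these other cells was lower in all 3 control libraries than in any succinate library, where it ran from 0.286% to 0.437%. The 6 defining fibroblast markers summed to 188, 144 and 208 FPKM in control and to 220 to 444 FPKM in the succinate libraries. The 5 adipocyte markers summed to 29.1, 27.1 and 23.8 FPKM in control and to 35.8 to 162 FPKM in the succinate libraries. The remaining marker sets overlapped between control and succinate libraries. Endothelial markers summed to 40.9, 49.6 and 56.4 FPKM against 53.8 to 141 FPKM (5 markers), and smooth muscle markers to 62.9, 86.0 and 84.9 FPKM against 77.8 to 161 FPKM. Immune markers summed to 8.05, 7.93 and 10.4 FPKM against 8.69 to 21.95 FPKM, and erythroid markers to 11.1, 1.67 and 1.29 FPKM against 1.11 to 19.4 FPKM. Schwann cell markers summed to 30.1, 34.2 and 17.2 FPKM against 8.35 to 47.1 FPKM. Of 103 tested members of these lists, 82 had a lower fitted mean in control than in the succinate diets, against 6521 of all 13319 genes tested. The median log2 difference of these members was -0.40, against 0.01 over all genes tested, and none passed. Taken singly, 1.69% of the 13319 genes had all control libraries below all succinate libraries.

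The fibre type of the control muscle was read from the myosin heavy chain genes and from 13 pairs or groups of slow and fast isoforms. Among the myosin heavy chains, fast forms dominated. MYH1 made up 65.5%, 81.8% and 79.9% of all myosin heavy chain FPKM, and MYH2, of the oxidative fast 2A fibres, 26.1%, 14.5% and 16.3%. Slow MYH7 made up 8.29%, 3.59% and 3.69%. MYH4, of 2B fibres, was at only 2.27, 1.82 and 3.62 FPKM, or 0.0246% ± 0.0103 of the total, and embryonic MYH3 and neonatal MYH8 had means of 0.364 ± 0.0661 and 1.69 ± 0.961 FPKM. MYH13, of the eye muscles, had no count in any control library. These genes are close paralogs, most of them clustered on chromosome 11 (MYH1 at 29281705 to 29306036 and MYH2 at 29308556 to 29333581 in the table), so reads shared between them could move the shares.

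In all 13 isoform pairs, replicate 1 had the highest slow share of the 3 control libraries. The slow share of the regulatory light chain (MYL2 against MYLPF) was 20.8%, 6.27% and 7.02%. That of troponin T (TNNT1 against TNNT3) was 67.9%, 52.0% and 50.4%. For tropomyosin, TPM3 took 30.4%, 11.01% and 11.03% of its sum with TPM1. In each of these, replicates 2 and 3 lay together and replicate 1 stood above them. The same held for calsarcin, a Z-disc protein, where MYOZ2 took 8.81%, 1.48% and 2.05%, and for troponin C, where TNNC1 took 11.1%, 4.79% and 3.99%. The calcium pump ATP2A2 took 10.8%, 6.03% and 5.90%, and the heart-type lactate dehydrogenase subunit LDHB, which favours lactate use, took 5.73%, 2.24% and 2.94%. Troponin I (TNNI1) took 4.78%, 3.11% and 3.27%, and myosin binding protein C (MYBPC1) 38.6%, 30.8% and 31.7%. In alpha actinin, ACTN2, present in all fibres, took 46.6%, 39.3% and 36.9% against fast-specific ACTN3. The slow essential light chain MYL3 took 4.04%, 0.960% and 2.28%, and the slow calsequestrin CASQ2 0.939%, 0.695% and 0.566%.

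By FPKM, the mean slow share ran from 0.734% for calsequestrin to 56.8% for troponin T. The measure bears on these levels, since the forms of a pair differ in listed gene length. By counts, troponin T came to 35.2%, below alpha actinin at 40.6% and myosin binding protein C at 38.8%. Tropomyosin was at 6.94% by counts against 17.5% by FPKM, lactate dehydrogenase at 1.52% against 3.64%, and the calcium pump at 13.8% against 7.59%. Without replicate 1, the FPKM means were 6.64% in place of 11.4% for the regulatory light chain, 1.77% in place of 4.11% for calsarcin, 11.02% in place of 17.5% for tropomyosin and 4.39% in place of 6.64% for troponin C. The other 9 means moved by less than 1.5 times. A share compares only the forms named and is not a fraction of fibres.

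Levels of the genes themselves were then compared between the libraries. MYH7, listed in the table as LOC442995 with the description myosin-7, measured 1012, 348 and 366 FPKM, which in TMM-scaled CPM was 3.49 times the mean of replicates 2 and 3 in replicate 1. MYL2 measured 3275, 728 and 695 FPKM and was 5.68 times higher in replicate 1. TNNT1 measured 1221, 441 and 435 FPKM, a ratio of 3.44. By the same ratio, the 15 fast members ranged from 1.01 for MYH4 to 2.58 for MYH2. TNNI2 was at 2.08, CASQ1 at 1.72, TNNT3 at 1.70 and MYL1 at 1.68, while MYH1 was at 1.24 and TNNC2 at 1.25. Of the 13 slow members, 13 were highest in replicate 1, and of the 15 fast members 12 were. Slow members at least 2-fold above both others there were MYH7, MYL2, MYL3, TNNC1, TNNI1, TNNT1, TPM3, MYOZ2, CASQ2 and LDHB. MYBPC1, ACTN2 and ATP2A2 were not among them, while the fast members MYH2 and TNNI2 also reached that level. These ratios and 2-fold calls used TMM-scaled CPM, which raises replicate 1 relative to its library total. By FPKM, TNNI2 measured 5293, 3154 and 3124, which was short of 2-fold.

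In most pairs, the median of the succinate libraries lay nearer to replicate 1 than to replicates 2 and 3. For tropomyosin it lay about midway, at 20.7% against 30.4%, 11.01% and 11.03%. In 9 of the 13 pairs, all 9 succinate libraries had a larger slow share than both replicates 2 and 3, a pattern chosen after its values were seen. In 9 of 13, replicate 1 lay inside the succinate range. The same libraries enter every pair, so the pairs are not separate observations, and no like share over all genes was computed. For the myosin heavy chain pair, the succinate libraries ran from 5.28% to 12.3% (median 8.81%) against a control mean of 5.20% ± 2.69, or 3.64% without replicate 1. The slow genes did not separate the diets in the test across all genes. MYH7 had a log2 difference of -0.30 ± 0.37 (SE, control minus succinate diets; edgeR adjusted p = 0.773), and TNNT1 one of -0.36 ± 0.35 (edgeR adjusted p = 0.691). Without control replicate 1, these were -1.17 (edgeR adjusted p = 0.119) and -1.22 (edgeR adjusted p = 0.0584), and without control replicate 2 they were 0.016 and -0.057.

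**Figure D3:**
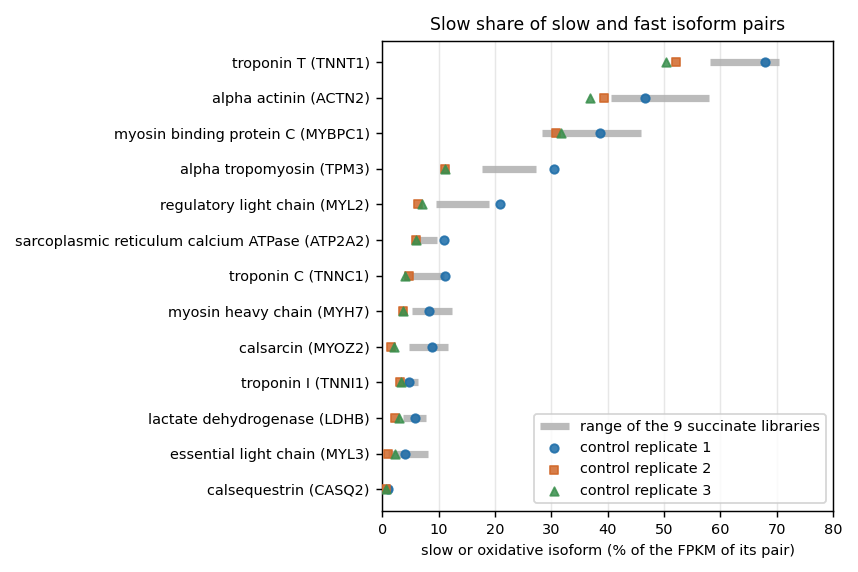
Slow or oxidative isoform as a percent of the FPKM of its pair or group, in the 3 control libraries (points) and as the range of the 9 succinate libraries (grey bars). Replicate 1 is highest of the control libraries in all 13 pairs, as in troponin T with 67.9% against 52.0% and 50.4%.

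Variation among the control libraries was then measured over the 8932 genes with a mean of at least 5 TMM-scaled CPM (scaled by the trimmed mean of M-values). The median SD of log2(CPM + 1) over the 3 libraries was 0.21. From the highest to the lowest library, 653 genes (7.31%) spanned at least 2-fold. In the same measure 616 genes spanned 2-fold in SUC1, 1099 in SUC2 and 957 in SUC3, so the control group was not the most variable. Replicate 1 was at least 2-fold above both others for 125 genes (1.4%) and below both for 56 (0.627%). Replicate 2 was above both for 31 (0.347%) and below for 59 (0.661%), and replicate 3 for 23 (0.258%) and 25 (0.28%). Fewer genes span 2-fold when any library is left out, and the number was 200 without replicate 1, 341 without replicate 2 and 441 without replicate 3.

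The 30 most variable genes, ranked by the SD in excess of that of genes of like level, were read as a description, since they were picked by that spread. Replicate 1 was the odd library for 23 of them, high for 19 and low for 4. The embryonic and slow-fibre light chain MYL6B led, at 210.7, 6.10 and 9.46 CPM. RCAN1, an inhibitor and target gene of calcineurin, measured 709, 34.1 and 37.9 CPM. CSRP3, the muscle LIM protein of the Z-disc, measured 798, 58.8 and 70.4 CPM. In all 3 genes, replicates 2 and 3 were alike and replicate 1 was more than 10 times their mean, with ratios of 27.1, 19.7 and 12.4.

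Several more belonged to the Z-disc and to mechanical stress. ANKRD1 measured 1260, 151 and 406 CPM and ANKRD2 measured 158, 13.1 and 37.1 CPM, both being ankyrin-repeat proteins that respond to stretch. XIRP1, an actin-binding protein of attachment sites and damaged fibres, measured 1085, 116 and 132 CPM. ABRA, an actin-binding protein of striated muscle, measured 1044, 107 and 158 CPM. These 4 genes shared the same order, with replicate 1 highest, then 3, then 2. The slow Z-disc gene MYOZ2, at 349, 47.9 and 56.9 CPM, and the light chain MYL3, at 316, 39.3 and 113 CPM, did the same.

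Other genes high in replicate 1 were matrix and early-response genes. Tenascin C, TNC, a matrix protein of tendon junctions and repair, measured 17.9, 0.544 and 2.58 CPM. Fibromodulin, FMOD, a proteoglycan rich in tendon, measured 37.2, 3.10 and 11.003 CPM. The early-response transcription factor EGR1 measured 18.5, 2.34 and 2.35 CPM, and the phosphatase DUSP1, which switches off MAP kinases, 183, 29.0 and 41.3 CPM. TNFRSF12A, the receptor for the cytokine TWEAK, followed the same pattern at 55.8, 3.21 and 5.90 CPM, as did the transcription factor PITX3 at 65.0, 5.82 and 5.50 CPM.

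Not every variable gene was high in replicate 1 alone. Complement C7 was high in replicate 2, at 66.5 CPM against 6.62 and 5.39 in replicates 1 and 3. The transferrin receptor TFRC, which imports iron, was high in replicate 3, at 26.0, 30.0 and 210 CPM. So was the matrix protein CILP, at 46.9, 81.3 and 326 CPM, and the fatty acid desaturase SCD, at 16.7, 21.3 and 104 CPM. In each of these 4 genes, the other pair of libraries lay below the outlying one. Genes low in replicate 1 were SH2D4A (2.34, 30.9 and 12.5 CPM), EFHB (2.90, 15.7 and 30.0 CPM), IL17RA, a receptor for interleukin 17 (7.03, 55.1 and 36.6 CPM), and the carbonic anhydrase CA12 (1.59, 8.11 and 16.8 CPM). METTL21C, a muscle methyltransferase, was low in replicate 3, at 11.4, 10.1 and 0.745 CPM, as was the stress gene GADD45G, at 43.9, 57.9 and 6.65 CPM. Just inside the ranking stood SCD and CA12, with an excess SD of 1.20 and 1.18, and just outside it MYL2 and CCN2, each with 1.18.

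**Figure D4:**
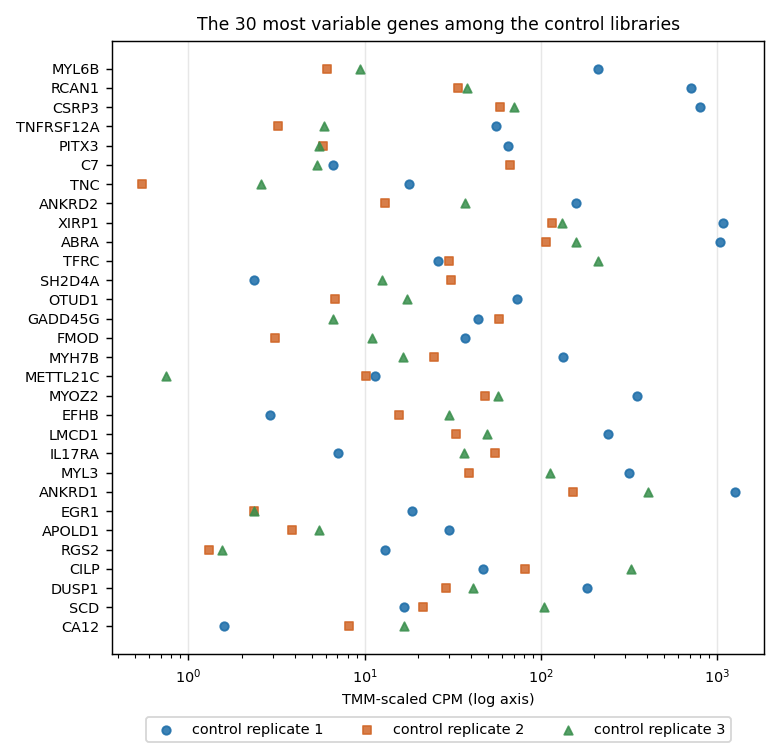
TMM-scaled CPM (log axis) in each control library for the 30 genes with the largest excess spread, ordered from the largest at the top. Replicate 1 is highest for most of them, as for MYL6B with 210.7 CPM against 6.10 and 9.46, while C7 is highest in replicate 2 and TFRC in replicate 3.

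Of the 30 genes, 26 spread more widely among the control libraries than within each of the succinate diets, as their selection on the control spread favours. The succinate libraries often filled the gap between the control libraries. RCAN1 ran from 146 to 572 CPM over the 9 succinate libraries, between replicate 1 and the other pair, and CSRP3 from 126 to 937 CPM. XIRP1 had a succinate median of 2027 CPM, above all 3 control libraries. METTL21C was variable there too, from 1.11 to 146 CPM.

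Gene groups moved with the libraries. Over all 8932 genes, 35.3% were highest in replicate 1, 35.5% in replicate 2 and 29.2% in replicate 3. Members of a list that had the mean of at least 5 CPM were set beside these shares. Replicate 1 was highest for 54 of 63 contractile genes, with a median log2 ratio to the mean of the other pair of 0.73, against -0.01 over all genes. It was highest for 36 of 36 nuclear complex I genes (median 0.66), 37 of 37 genes of complexes II to V (0.75), 11 of 11 mitochondrially encoded genes (0.49) and 17 of 18 TCA cycle genes (0.52). In TMM-scaled CPM, NDUFA6 and UQCRB, subunits of complexes I and III, and COX7A1, the muscle form of a complex IV subunit, were more than 2-fold above both others there. UQCRB measured 408, 192 and 192 CPM.

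The scaling bears on these counts and on 2-fold calls of single genes. TMM factors were 0.857, 1.10 and 1.01, and on library totals alone the median log2 ratio of all genes to the other pair was -0.30 in replicate 1 and 0.23 in replicate 2. On that scale, 13.2% of all genes were highest in replicate 1. The counts there were 44 of 63 for contractile genes, 36 of 36 for complex I and 35 of 37 for complexes II to V. They were 6 of 11 for the mitochondrial genome and 12 of 18 for the TCA cycle. Cytosolic ribosomal protein genes changed sides, with 48 of 79 highest in replicate 1 after TMM scaling and 74 of 79 highest in replicate 2 without it. On totals alone, 59.0% of all genes were highest in replicate 2. Of 25 fatty acid genes, 18 were highest in replicate 1 after TMM scaling and 6 without it.

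Chaperone and early-response genes were also high in replicate 1. The small heat shock proteins HSPB1 and HSPB7, which protect the sarcomere, measured 1313, 499 and 469 CPM and 549, 132 and 148 CPM. DNAJB4, a co-chaperone, measured 375, 77.6 and 116 CPM. The early-response factor FOS measured 73.4, 13.7 and 14.2 CPM, and the matricellular gene CCN2 26.3, 3.76 and 4.36 CPM. The ubiquitin ligase FBXO32, an atrophy gene, went the other way, at 619, 1689 and 1670 CPM. Of 28 members of the stress list, 22 were highest in replicate 1 (15 on library totals alone), and of 23 early-response genes, 15 were (13 on totals alone).

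Circadian clock genes were seldom highest in replicate 1, which was highest for 1 of 18 after TMM scaling (median log2 ratio -0.39), against 35.3% of all genes. On library totals it was again highest for 1 of 18, near the 13.2% of all genes on that scale. The clock repressor CRY2 measured 10.0, 19.4 and 19.9 FPKM, the clock output gene TEF 9.38, 16.7 and 16.4 FPKM, and the nuclear receptor NR1D2 27.9, 45.0 and 41.7 FPKM.

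Over the non-fibre lists together, replicate 3 was highest for 43 of 76 genes, against 29.2% of all genes. It was highest for 11 of 14 endothelial, 9 of 11 smooth muscle and 3 of 3 immune genes, but for 5 of 11 adipocyte and 2 of 7 nerve genes. On library totals alone it was highest for 44 of the 76, with 11 endothelial and 6 smooth muscle genes, against 27.7% of all genes. In the matrix list, 13 of 30 genes were highest in replicate 3 and 16 in replicate 1. Matrix genes were mixed. In that list, FMOD, TNC and THBS4 were more than 2-fold above both others in replicate 1, with THBS4, a matrix protein of tendon and muscle junctions, at 182, 37.6 and 49.9 CPM. COL1A1, COL1A2, FMOD and TNC were more than 2-fold below both others in replicate 2. The part of such tissue in the fibre-type contrast was not tested.

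**Figure D5:**
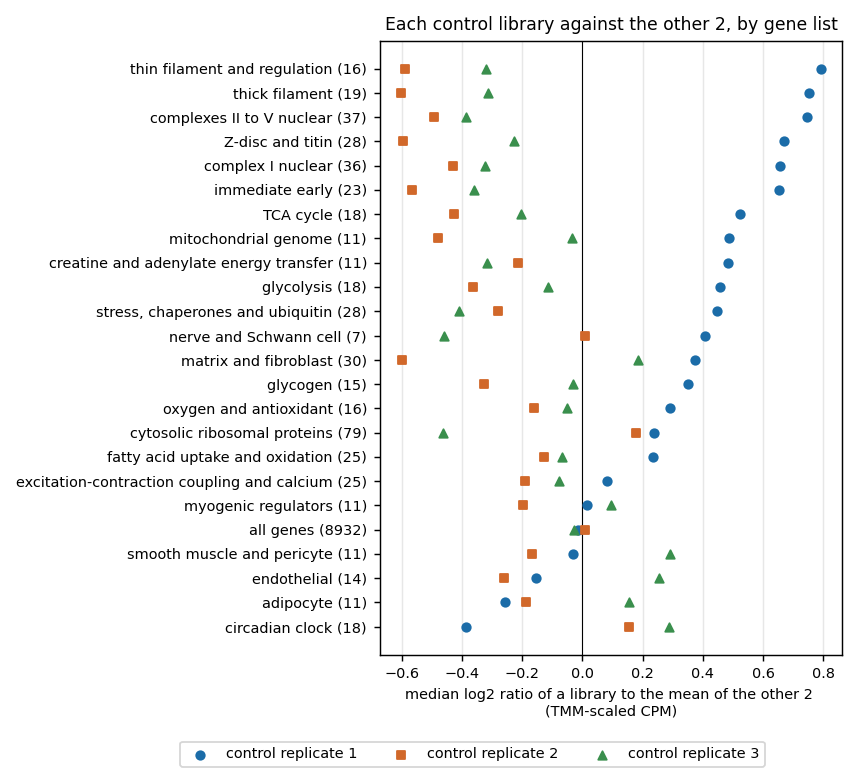
Median log2 ratio of each control library to the mean of the other 2 for each gene list (members with a mean of at least 5 CPM; number in parentheses; TMM-scaled CPM). Replicate 1 lies highest for the filament and respiratory chain lists, with 0.75 for complexes II to V, and lowest for the circadian clock at -0.39.

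The steadiest genes give the other end of the range. Among genes with a mean of at least 50 TMM-scaled CPM, UBR3, a ubiquitin ligase, varied least, at 642, 641 and 641 CPM. HDLBP, an RNA-binding protein, followed at 508, 502 and 497 CPM. Desmin, DES, was among the 10 steadiest at 4952, 4721 and 4995 CPM, as was the carnitine acetyltransferase CRAT at 405, 411 and 393 CPM. MACROD1, PPP1R2, USP9X, KIF1C and SERBP1 were also in the set. The steadiness rests on TMM scaling. By FPKM, UBR3 measured 67.4, 86.7 and 79.6 and DES 1876, 2299 and 2236, both lowest in replicate 1, as were the others of the set. These genes were picked for a small spread in control, and over the succinate libraries UBR3 ran from 399 to 682 CPM and DES from 3891 to 7021 CPM.

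Control was last compared with the mean of the 3 succinate diets. In one edgeR quasi-likelihood fit over all 12 libraries, 0 of 13319 genes (0.0%) passed an adjusted p of 0.05, and 1930 had an unadjusted p under 0.05. DESeq2 called 471 genes, and limma on log2(FPKM + 1) and log2(FPKM + 0.1) called 9 and 19. The edgeR result lay at the threshold, since 23 genes shared the smallest adjusted p of 0.0513, 14 higher and 9 lower in control. None of the 20 most abundant genes came near it (edgeR adjusted p from 0.206 to 0.992), nor did the 30 most variable (0.127 to 0.996) or the 28 isoform genes (0.233 to 0.993).

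The genes with the smallest p are named with their values, none having passed. TTLL7, which adds glutamate chains to tubulin, measured 52.5, 55.1 and 53.4 CPM in control and 20.6 to 49.8 CPM (median 26.8) in the succinate libraries. RCSD1, an actin capping protein regulator, measured 121, 102 and 116 CPM against 21.1 to 89.1 CPM (median 38.9). LIFR, the receptor for leukaemia inhibitory factor, measured 164, 203 and 182 CPM against 85.7 to 131 CPM (median 107). In these 3, no control library overlapped the succinate libraries in TMM-scaled CPM. By FPKM, TTLL7 did overlap, at 5.39 in control replicate 1 against a succinate maximum of 5.73. Their log2 differences were 0.89 ± 0.13, 1.44 ± 0.23 and 0.75 ± 0.12 (SE; edgeR adjusted p = 0.0513 each). CNST and RFX5 had differences of 0.81 ± 0.13 and 1.12 ± 0.19.

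The 5 named genes on the lower side were treated in the same way. TPM4, a non-muscle tropomyosin, measured 42.7, 33.9 and 36.7 CPM against 56.9 to 91.1 CPM. SIK1, a salt-inducible kinase, measured 18.3, 14.5 and 14.7 CPM against 35.0 to 117 CPM. ROCK2, a kinase that regulates the actin cytoskeleton, measured 226, 126 and 143 CPM against 362 to 995 CPM. In each, the groups did not overlap. Their log2 differences were -0.86 ± 0.14, -2.30 ± 0.37 and -1.61 ± 0.26 (SE; edgeR adjusted p = 0.0513 each). DCLK1, a microtubule-associated kinase, and ACTN1, the non-muscle alpha actinin, had differences of -1.29 ± 0.21 and -0.98 ± 0.16. Over all 13319 genes, control lay wholly above the succinate libraries for 1.46% and wholly below for 1.69%.

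Leaving out replicate 1 raised the count to 60 genes, of which 26 were higher and 34 lower in control. Leaving out SUC2 replicate 2 raised it to 70, while leaving out control replicate 2 or 3 left it at 0, so the count rests on which libraries enter.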

How the data were processed

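The authors deposited whole-number read counts per gene and FPKM for each library, per the file headers. The sources used here name no aligner, counting program or strand setting. The builds GRCm38 and mm10, both of mouse, stand in the submitters' processing notes, whereas the table's chromosomes and descriptions were of sheep. The deposited FPKM matched counts over gene length and column total to within a relative difference of 3.6e-14. Of 21257 genes, 20874 were found in a RefSeq gene table (ARS-UI_Ramb_v3.0) that gave 437 symbols and chromosome labels, and descriptions gave 24 more. Of 605 symbols over 26 gene lists, 15 were not found.

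Shares used the deposited FPKM. Spread used TMM-scaled CPM and log2(CPM + 1), for genes with a mean of at least 5 CPM, against a running median over 501 genes. The test was edgeR 4.0.16 in R 4.3.3 after filterByExpr, diet as the only factor, 8 residual degrees of freedom, two-sided, with Benjamini-Hochberg adjustment. DESeq2 1.42.0 and limma 3.58.1 were alternatives. The edgeR fit was also run on simulated counts. Named genes were the 20 most abundant nuclear and 3 mitochondrially encoded genes, isoform pairs, the 30 most and 10 least variable genes, up to 4 members per list by level and by spread, and the 5 smallest p-values per direction. Cell type markers and list members at least 2-fold apart from both other libraries are named besides. The members and lists were chosen with earlier results of these data known. No pair of libraries within a diet held identical values or agreed within sampling noise. Results for a few genes that the rule named are not reported here.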

Additional observations from a re-analysis of the deposited data

How the results depend on the processing

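Against the 0 genes called for control versus the succinate diets, 10 were called without TMM scaling, 23 with upper-quartile scaling, 471 by DESeq2, 9 and 19 by limma on log2(FPKM + 1) and log2(FPKM + 0.1), 99 with no expression filter and 23 with a mean of at least 5 CPM. Leaving out 1 control library gave 0 to 60, and leaving out 1 succinate library, chosen after seeing the data, 0 to 70. The replicate block gave 0. Same-numbered libraries of different diets correlated from -0.25 to 0.25 in their deviations (median 0.04). Libraries with different numbers correlated from -0.32 to 0.30 (median -0.03). No pairing by number was detected, which does not show that there was none. By share of counts in place of FPKM, contractile genes held 27.2%, mitochondrial genes 13.3%, cytosolic energy metabolism 8.99%, the mitochondrial genome 11.2% and the 20 most abundant nuclear genes 21.5%. Without the mitochondrially encoded genes these were 27.6%, 4.69% and 13.4% for the 3 classes and 35.1% for the 20 genes. Genes spanning 2-fold numbered 1058 at a mean of at least 1 CPM, 355 at 20 CPM and 200 to 441 with 1 control library left out. Without replicate 1, 6 of the 30 most variable genes stayed in that rank, against 22 without replicate 2 and 23 without replicate 3. The log2 difference of MYH7, -0.30, ran from -1.17 to 0.016 with 1 control library left out, and turned sign without control replicate 2. For each of these the cause was not tested. With 3 libraries per diet, the biological coefficient of variation of the control group was 0.233. Its bearing on the number of genes called was not tested.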

Other observations

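A few genes were counted in 1 control library alone, with at least 50 counts there and at most 3 in both others. They were sought after the data were seen and are given as counts. In replicate 2 these were the liver-secreted plasma proteins albumin (ALB; 0, 126 and 0 counts in replicates 1, 2 and 3), fibrinogen alpha (FGA; 0, 112 and 0), fibrinogen gamma (FGG; 3, 95 and 0) and the acute-phase protein ORM1 (0, 50 and 0), with 1 unnamed locus. ALB was also counted at 356 in SUC1 replicate 1, 324 in SUC2 replicate 3 and 337 in SUC3 replicate 3, and at 0 to 13 in the other 6 succinate libraries. FGA was highest in those same 3 succinate libraries, at 52, 190 and 86 counts, and at 0 to 6 in the rest. ORM1 did not follow them, at 0 to 2 counts in every succinate library. In replicate 1 they were COMP, a cartilage and tendon matrix protein (102, 0 and 0 counts), and ANGPTL7 (116, 1 and 1). Among the succinate libraries, COMP reached 111 counts in SUC3 replicate 2 and ANGPTL7 58 in SUC2 replicate 3. In replicate 3 they were the complement-related CFHR5 (3, 3 and 138) and the cytokine IL32 (2, 3 and 83), with 1 unnamed locus. CFHR5 reached 233 counts and IL32 93 in SUC1 replicate 1.

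FABP3, the heart and muscle fatty acid binding protein, was listed at 0, 0.0405 and 0.0392 FPKM in control, although the gene is known for its expression in striated muscle. The related FABP5 was at 206, 93.7 and 118 FPKM and the adipocyte form FABP4 at 18.5, 13.1 and 7.56 FPKM. Both were picked after their values were seen.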
